A study of Homo sapiens with 42 samples.

Results

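The nuclear-encoded subunits of respiratory complex I were followed through RNA-seq of MOLM-13 cells, a human acute myeloid leukemia (AML) cell line that carries a FLT3 internal tandem duplication. The 36 genes were chosen by name from the 57353 gene names of the count table, 6 as core subunits and 30 as accessory subunits. After a filter on low counts, 33 of the 36 were tested (5 core and 28 accessory) among 12939 genes in all. The study asked how medium conditioned by human bone marrow stromal cells (hBMSC-CM) changes the response of these cells to FLT3 inhibition, at the level of total RNA and of RNA on ribosomes.

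Cells were kept for 12 hours in plain RPMI or in hBMSC-CM, made with the stromal line HS-5. In RPMI the groups were vehicle, 3 nM of the FLT3 inhibitor quizartinib, and the combination ("combo") of 3 nM quizartinib with 10 nM of the mTOR inhibitor everolimus. In hBMSC-CM the same 3 groups were joined by 10 nM everolimus alone (no RPMI group with everolimus as the single drug is used here). All 7 conditions used the same line, labelled WT for genotype, so that no other leukemia stands behind the values. Each condition had 3 replicates, and each replicate gave 1 library of input RNA (whole lysate) and 1 of RNA from heavy polysomes, 42 libraries in all. The study calls its replicates biological, while the labels only number them and do not name separate cultures, so p-values measure the spread between these samples.

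Complex I, or NADH:ubiquinone oxidoreductase, is the entry point of electrons from NADH into the respiratory chain and pumps protons across the inner mitochondrial membrane. Its core subunits carry the flavin and iron-sulfur clusters or form the proton channels, and those of the channels are encoded by mitochondrial DNA. The accessory subunits, nearly all of them small proteins, surround this core and serve its assembly and stability. Messenger RNAs with many ribosomes sediment as heavy polysomes, and a higher share of a transcript there is commonly read as more active translation.

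The libraries held 19439370 to 37161265 counts in input and 21459383 to 38786394 counts in polysomes. Transcripts of the 36 genes took 0.218 to 0.475% of the input counts and 0.299 to 0.628% of the polysome counts. Myeloid markers such as SPI1, CEBPA and CD33 were found in every library, while stromal markers summed to no more than 41.4 CPM of input (CPM are counts scaled to a common library total), with COL3A1, LUM and POSTN at 0 in all 42. Transcripts of mitochondrial DNA made up 3.17 to 10.2% of input counts but 0.0734 to 0.713% of polysome counts, and in input of RPMI vehicle they came to 75900 CPM in replicate 1 against 31700 and 36800 CPM in replicates 2 and 3. Replicate 1 was also the highest in the other conditions except hBMSC-CM everolimus (36700, 40800 and 42500 CPM). The input library of hBMSC-CM vehicle replicate 3 stood apart for the complex I genes: their median log2 level was 0.41 above the RPMI vehicle mean, against -0.23 and -0.26 in replicates 1 and 2. The 3 replicates of hBMSC-CM everolimus were much closer to one another than those of any other group. Their counts differed by a chi-square per gene of 4.96 to 7.51 in input and 7.003 to 16.95 in polysomes, against 30.1 to 223 and 30.9 to 307 in the other groups. They differed by more than sampling noise and were kept as 3 samples, but their numbers did not pair with those of vehicle, and the fit gives them the spread shared by all groups. Whether they were prepared apart from the rest is not given in the sources used here, and such a difference cannot be told apart from that of everolimus. In bulk RNA a smaller number of cells of one kind and less RNA per cell cannot be told apart, and all levels are relative to the rest of their library.

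The complete coding sequences of the 4 shortest tested members are shown here because coding length and codon composition both ran along with the polysome results. NDUFB1 encodes the shortest protein of the 36 (58 residues) and NDUFS1 the longest (727), and NDUFA3 and NDUFC1 are shown for length alone. Capitals mark a G or C at the last position of a codon. NDUFB1 (chr14:92116122-92121917, minus strand) and NDUFC1 (chr4:139266880-139302551, minus strand) encode small membrane-arm subunits, NDUFA1 (chrX:119871832-119876662, plus strand) a membrane subunit needed for assembly, and NDUFA3 (chr19:54102728-54109257, plus strand) a further small accessory subunit. Coordinates are those of the genes in GENCODE release 44 on GRCh38, and the sequences run over the coding exons of the canonical transcripts, stop codon included.
NDUFB1: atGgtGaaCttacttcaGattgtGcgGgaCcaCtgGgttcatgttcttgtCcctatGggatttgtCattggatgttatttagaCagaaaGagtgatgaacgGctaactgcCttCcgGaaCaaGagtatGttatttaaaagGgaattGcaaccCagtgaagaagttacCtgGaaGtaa
NDUFA1: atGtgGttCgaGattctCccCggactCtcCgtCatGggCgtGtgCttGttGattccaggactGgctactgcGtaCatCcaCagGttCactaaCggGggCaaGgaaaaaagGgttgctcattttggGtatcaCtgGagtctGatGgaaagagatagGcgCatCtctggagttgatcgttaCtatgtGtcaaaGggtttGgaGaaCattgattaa
NDUFC1: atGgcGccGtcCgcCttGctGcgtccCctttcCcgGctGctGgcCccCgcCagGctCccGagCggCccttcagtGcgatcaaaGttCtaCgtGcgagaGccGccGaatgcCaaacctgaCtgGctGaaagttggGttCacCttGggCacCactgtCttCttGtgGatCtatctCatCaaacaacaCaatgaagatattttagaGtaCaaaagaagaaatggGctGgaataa
NDUFA3: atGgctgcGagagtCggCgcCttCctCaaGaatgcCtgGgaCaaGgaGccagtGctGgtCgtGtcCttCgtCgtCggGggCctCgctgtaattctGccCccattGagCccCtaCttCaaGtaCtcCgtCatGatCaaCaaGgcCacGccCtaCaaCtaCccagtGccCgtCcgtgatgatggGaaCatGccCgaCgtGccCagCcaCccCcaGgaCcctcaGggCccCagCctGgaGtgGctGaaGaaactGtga
The 177 bases of NDUFB1 have 27 codons ending in G or C before the stop codon (46.6%), the 213 bases of NDUFA1 have 41 (58.6%), the 231 bases of NDUFC1 have 50 (65.8%) and the 255 bases of NDUFA3 have 70 (83.3%). In RPMI vehicle, the mean log2 polysome minus input was 0.02 for NDUFB1, 0.40 for NDUFA1, -0.50 for NDUFC1 and 0.81 for NDUFA3.

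Per kilobase of canonical transcript, the levels in RPMI vehicle input spanned from 598 ± 130 CPM (SD, n = 3) for NDUFB9, an accessory subunit of the membrane arm, to 0.514 ± 0.168 CPM for NDUFV2, an iron-sulfur core subunit. NDUFS5 and NDUFS6 followed NDUFB9 at 475 ± 84.4 and 342 ± 51.4 CPM per kb. Among the core genes, NDUFV1 (187 ± 12.2), NDUFS8 (161 ± 27.6), NDUFS7 (161 ± 25.2) and NDUFS3 (152 ± 28.7) lay close together, the last 3 of them within 1 SD of one another, and NDUFS1, with a canonical transcript of 11660 bases, stood at 8.85 ± 1.12 CPM per kb. The lowest tested gene by this measure was NDUFA9 at 1.45 ± 0.348 CPM per kb, with a canonical transcript of 8356 bases. By mean count per library, NDUFA9 (364) lay above NDUFC2 (316), NDUFB8 (256) and NDUFA11 (196). Which transcripts these cells use was not tested, so the ranks rest on the annotated lengths. The median was 161 CPM per kb over the 5 tested core genes and 84.0 over the 28 tested accessory genes.

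NDUFA7, NDUFA13 and NDUFV2 failed the filter, with mean counts of 29.5, 20.3 and 15 per library. NDUFV2 was at 0.606, 0.345 and 0.372 CPM in RPMI vehicle input and at 0, 0 and 0.044 CPM in the polysomes of the same replicates. In the annotation, 32.5%, 21% and 28.4% of the exon bases of these 3 genes are shared with another gene on the same strand. The same held for 33.8% of NDUFB8, 18.6% of NDUFC2 and 16.0% of NDUFS3, and 51.4% of the NDUFS7 exon bases face a gene on the opposite strand. These percentages are of all annotated exons of a gene joined. Those exons span 1999 bases in NDUFB8 and 2711 in NDUFV2, against 678 and 857 in the canonical transcript. The same-strand shared bases outnumber the canonical transcript of NDUFA13 and nearly equal that of NDUFB8. They are fewer in NDUFV2, NDUFA7, NDUFS3 and NDUFC2. How many of them lie within the canonical transcripts was not tested. The part of these overlaps in the levels was not tested, and the strand setting of the counting is not given in the sources used here.

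Under quizartinib in RPMI, 8 of the 33 tested complex I transcripts fell in input and 1 rose by edgeR's quasi-likelihood test (adjusted p under 0.05 over all genes), against a background of 18% of all genes lower and 16.6% higher. The log2 change was below 0 for 30 of the 33, with a median of -0.47 against 0.08 over all genes, and core (-0.51) and accessory genes (-0.46) had like medians. Here and below, counts by sign or at an unadjusted p under 0.05 come without the share of all genes. Such counts are not read as results about complex I. The replicate numbers paired the samples in this comparison, and with the replicate as a block 16 genes were called (15 lower), or 19 (18 lower) with the block within each fraction. The called count ranged from 4 to 7 when 1 replicate was left out, with 4 without quizartinib replicate 2 and 5 without vehicle replicate 1. The shares of all genes above belong to the fit of all replicates without a block. Those of the other fits are not given here, so their counts are not read as a result about complex I.

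The largest fall was that of NDUFAB1, the mitochondrial acyl carrier protein, which is part of complex I and also of fatty acid synthesis in mitochondria. Its input level was 103, 97.6 and 116 CPM with vehicle and 43.2, 33.2 and 41.4 CPM with quizartinib. All quizartinib values lay below all vehicle values (log2 change -1.43, SE 0.24, edgeR adjusted p = 9.99e-06). NDUFS6, a zinc-binding accessory subunit beside the NADH-oxidizing module, went from 167, 157 and 207 CPM to 81.5, 75.1 and 93.2 CPM, again without overlap (log2 -1.09, SE 0.27, edgeR adjusted p = 0.002). NDUFB6 of the membrane arm went from 28.5, 24.8 and 22.7 CPM to 14.9, 11.6 and 12.3 CPM (log2 -0.97, SE 0.27, edgeR adjusted p = 0.00513). For NDUFS5, an accessory subunit on the intermembrane space side, values of 201, 222 and 282 CPM stood against 106, 107 and 151 CPM (log2 -0.95, SE 0.31, edgeR adjusted p = 0.0137; 0.0585 to 0.0702 without quizartinib replicate 1 or 2 or vehicle replicate 3). NDUFA6, a LYR-motif subunit that binds the acyl carrier protein, had a log2 change of -0.81 (SE 0.23, edgeR adjusted p = 0.00639).

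Of the core genes, NDUFS8 and NDUFS1 passed the test. NDUFS8, which carries iron-sulfur clusters next to the ubiquinone site, was at 119, 98.6 and 139 CPM with vehicle and at 64.9, 55.0 and 90.5 CPM with quizartinib. The groups did not overlap (log2 -0.76, SE 0.30, edgeR adjusted p = 0.0453), although the call was lost when quizartinib replicate 1 or 2 or vehicle replicate 1 or 3 was left out, with adjusted p from 0.0876 to 0.164. NDUFS1, the largest subunit of the peripheral arm, was at 112, 110 and 88.1 CPM and at 79.7, 73.3 and 49.9 CPM (log2 -0.61, SE 0.24, edgeR adjusted p = 0.044), and its call was lost without quizartinib replicate 2 or 3 or vehicle replicate 1 or 2 (adjusted p 0.0591 to 0.199). NDUFV1, which binds NADH and the flavin, had 273, 291 and 311 CPM against 216, 200 and 198 CPM without overlap but missed the threshold (log2 -0.51, SE 0.23, edgeR adjusted p = 0.0813); with the replicate as a block its adjusted p was 0.0463. NDUFS3 (-0.35, SE 0.21, edgeR adjusted p = 0.201) and NDUFS7 (-0.30, SE 0.20, edgeR adjusted p = 0.246) did not pass.

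Of the 3 members above 0, NDUFC1 was the one called higher. It was at 52.8, 38.7 and 44.7 CPM with vehicle and at 70.2, 65.5 and 84.1 CPM with quizartinib, so that every treated replicate was above every control (log2 0.69, SE 0.27, edgeR adjusted p = 0.0478). That call was lost on leaving out any 1 of the 6 replicates (adjusted p 0.0507 to 0.171). The remaining called gene, NDUFA1, had a log2 change of -0.52 (SE 0.19, edgeR adjusted p = 0.027), with the call lost without quizartinib replicate 2 or 3 or vehicle replicate 1 (adjusted p 0.0676 to 0.145). Among markers, 3 of 9 myeloid genes rose in the same comparison, where 16.6% of all genes did, and none fell, and COL1A1, the one stromal marker that passed the filter, had a log2 change of 4.43 (4.24 in hBMSC-CM) on counts of 0 to 1304. The part of these shifts in the complex I values was not tested.

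In hBMSC-CM, 3 of 33 complex I transcripts fell under quizartinib and 0 rose (edgeR), near the background of 6.84% lower and 5.46% higher among all genes, and 9 had an unadjusted p under 0.05. The 3 were NDUFAB1, NDUFA1 and NDUFS6, and without vehicle replicate 3 none of them passed. The median log2 change was -0.42 against 0.01 over all genes, -0.41 for core and -0.43 for accessory genes. Without that replicate, which stood apart, the complex I median was -0.13. With the replicate as a block 8 genes were lower, and 14 with the block within each fraction, since here too the numbers paired the samples. Leaving out 1 replicate gave 0 to 6 called genes, 0 without vehicle replicate 3 and 6 without vehicle replicate 2. Without vehicle replicate 3, 4.07% of all genes were lower and 3.11% higher. The shares of all genes with a block or with another replicate left out are not given here.

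NDUFAB1 was at 88.5, 81.4 and 139 CPM with vehicle and at 47.4, 43.7 and 62.3 CPM with quizartinib in hBMSC-CM, without overlap (log2 -1.01, SE 0.23, edgeR adjusted p = 0.00368; 0.0697 without vehicle replicate 3). NDUFA1 followed at 63.5, 58.3 and 78.7 CPM against 43.5, 45.0 and 40.1 CPM, also apart (log2 -0.64, SE 0.19, edgeR adjusted p = 0.0205; 0.14 without that replicate and 0.0677 without quizartinib replicate 3). For NDUFS6 the groups overlapped, with 131, 124 and 293 CPM against 82.5, 91.0 and 140 CPM, and the third vehicle value stood far above the other two (log2 -0.81, SE 0.27, edgeR adjusted p = 0.0477). Without that replicate the change was -0.29 (edgeR adjusted p = 0.593), and the call was also lost without quizartinib replicate 1 or 2 (adjusted p 0.17 and 0.167).

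**Figure D1:**
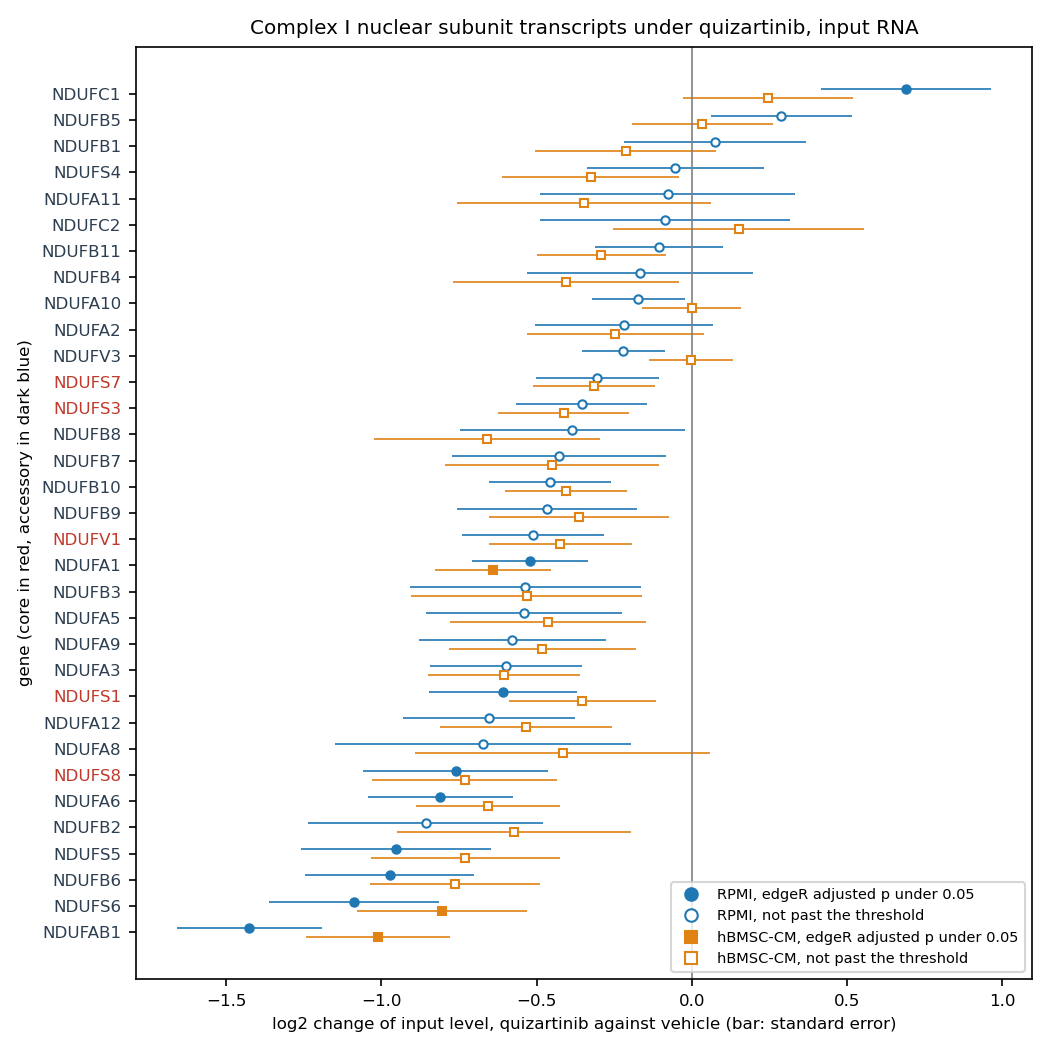
Log2 change of input level under quizartinib against vehicle for the 33 tested genes (y axis; core genes in red), in RPMI (circles) and hBMSC-CM (squares), with bars of 1 standard error and filled marks for edgeR adjusted p under 0.05. Of the 33 genes, 30 lie below 0 in each medium, NDUFAB1 lies lowest in both (-1.43 and -1.01) and NDUFC1 highest.

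The difference between media in the quizartinib effect on input was tested directly. No complex I gene passed (edgeR, 0 of 33, also 0 at an unadjusted p under 0.05 and 0 by DESeq2 and by limma), where 1.96% of all genes did, and the median difference was 0.05 with 14 genes below 0. Without hBMSC-CM vehicle replicate 3 the median difference was 0.28, again with 0 called and 1 at an unadjusted p under 0.05. NDUFAB1 had a log2 difference of 0.42 (SE 0.33, edgeR adjusted p = 0.82), hBMSC-CM minus RPMI.

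For the medium itself, no complex I transcript passed the test. Without drug, hBMSC-CM against RPMI gave a median log2 change of -0.003 (all genes -0.01), with 16 genes above and 17 below 0, and no gene was called by edgeR, DESeq2 or limma (2 at an unadjusted p under 0.05; background 1.51%). Without hBMSC-CM vehicle replicate 3 that median was -0.20, with 0 called. Under quizartinib the median was 0.08 (all genes -0.03), with 24 of 33 above 0, 0 called by edgeR, DESeq2 or limma and 1 at an unadjusted p under 0.05, against 8.16% of all genes called. In that comparison NDUFAB1 was the gene with the largest change (log2 0.38, SE 0.23, edgeR adjusted p = 0.423).

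When everolimus was added to quizartinib, no single gene passed in either medium. In RPMI the median log2 change was -0.06 (all genes -0.02), and 0 genes were called by edgeR, DESeq2 or limma, with 0 at an unadjusted p under 0.05 and 0.00773% of all genes called. In hBMSC-CM it was -0.31 (all genes 0.00) with 31 of 33 below 0, and 0 were called by edgeR, DESeq2 or limma, with 2 at an unadjusted p under 0.05 and 0.24% of all genes called. NDUFS6 went from 82.5, 91.0 and 140 CPM to 58.1, 61.1 and 93.9 CPM, with overlap (log2 -0.56, SE 0.27, edgeR adjusted p = 0.81). Whether the median change differed between the media was not tested.

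Everolimus alone in hBMSC-CM, whose replicates lay unusually close together, gave a median of -0.37 (all genes -0.02), with 31 of 33 below 0. None was called by edgeR, DESeq2 or limma, 3 had an unadjusted p under 0.05, and 0.41% of all genes were called. NDUFA1 lay below the vehicle values in all 3 replicates, 44.5, 41.7 and 44.3 CPM against 63.5, 58.3 and 78.7 CPM, but did not pass (log2 -0.62, SE 0.19, edgeR adjusted p = 0.151). The comparison shares its vehicle libraries with that of quizartinib in hBMSC-CM, including replicate 3, so the medians of -0.37 and -0.42 rest on the same controls. Without vehicle replicate 3 the everolimus median was 0.0, with 0 called and 2 at an unadjusted p under 0.05, so the fall of the median rested on that replicate.

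**Figure D2:**
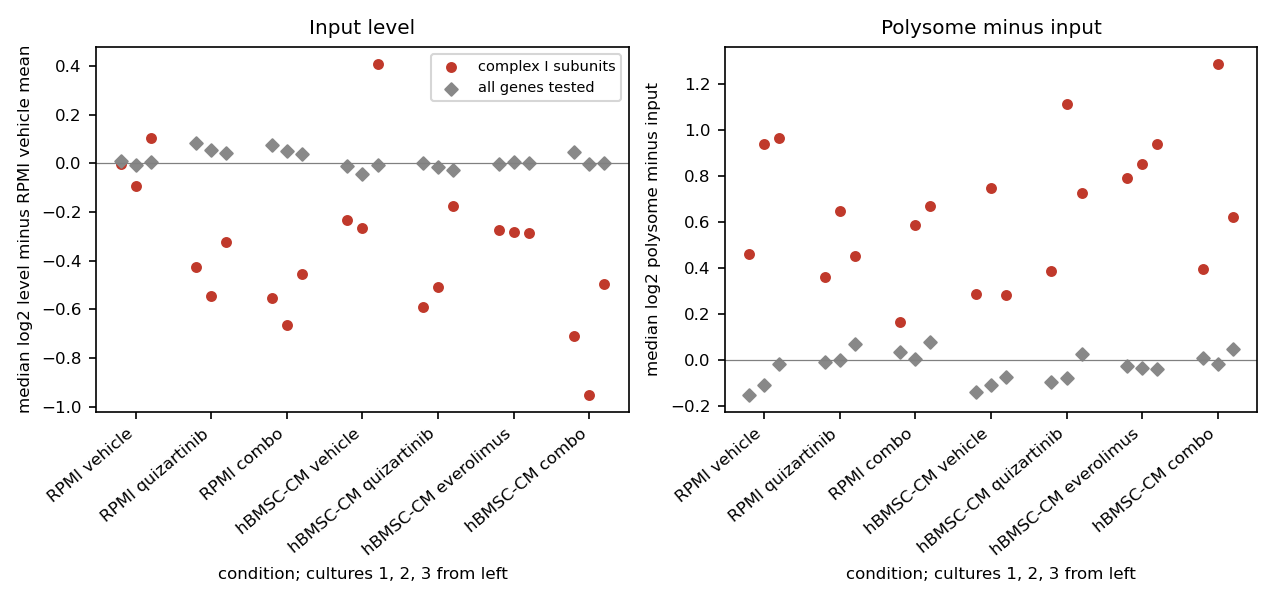
Median over the 33 complex I genes (red circles) and over all 12939 genes tested (grey diamonds) in each replicate of the 7 conditions, for the log2 input level minus the RPMI vehicle mean (left) and the log2 polysome minus input (right). Input medians under quizartinib or combo are below 0 in every replicate, hBMSC-CM vehicle replicate 3 is at 0.41, and polysome minus input is above that of all genes in each of the 21 replicates.

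Other genes of the pathway were compared by lists. Under quizartinib in RPMI input, where 18% of all genes were lower, 10 of 19 complex I assembly factors (median -0.60), 8 of 24 nuclear genes of complexes II to IV (median -0.46) and 2 of 16 nuclear genes of ATP synthase (median -0.32) were lower and none higher (edgeR). The share of ATP synthase genes was below that of all genes. NDUFAF4, an assembly factor, had a log2 change of -2.22 (SE 0.36, edgeR adjusted p = 7.75e-06), and ATP5MC1, which encodes the ring subunit of ATP synthase, one of -2.47 (SE 0.33, edgeR adjusted p = 3.3e-07). CYC1, cytochrome c1 of complex III, had a log2 change of -1.08 (SE 0.20, edgeR adjusted p = 3.87e-05). In hBMSC-CM, where 6.84% of all genes were lower, 6 of the 19, 4 of the 24 and 1 of the 16 fell, with medians of -0.55, -0.51 and -0.35, the last count being at the share of all genes. Without hBMSC-CM vehicle replicate 3, 1, 2 and 1 of them fell, with medians of -0.45, -0.32 and -0.21, where 4.07% of all genes were lower. The 7 complex I genes of mitochondrial DNA had medians of 0.21 in RPMI and 0.20 in hBMSC-CM, with 0 called by edgeR and 0 at an unadjusted p under 0.05 in either medium.

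Within each condition, more complex I transcripts were at a higher than at a lower relative level in heavy polysomes compared with input. The tests within a condition and the interaction tests below did not pair the input and polysome libraries of a replicate. Counts from a fit that pairs them are not given here. In RPMI vehicle, 19 of 33 were higher and 2 lower (edgeR), where 31.5% of all genes were higher and 33.9% lower, and the median log2 difference was 0.95 against -0.06 over all genes. Core genes had a median of 1.59 and accessory genes of 0.82. In RPMI quizartinib 16 were higher and 3 lower (all genes 31.2% and 26.7%), with a median of 0.56, and in RPMI combo 13 were higher and 3 lower (31.7% and 27.6%), with a median of 0.47.

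In hBMSC-CM vehicle 16 were higher and 3 lower (all genes 29.6% and 34%), with a median of 0.57. The counts were 17 and 1 with quizartinib (29.7% and 28.9%; median 0.82), 21 and 2 with everolimus (27.9% and 30.7%; median 0.79), and 18 and 2 with combo (32.9% and 30.1%; median 0.85). The core median lay above the accessory median in each condition, between 1.26 and 1.59 against 0.46 and 0.82, with NDUFS1 low and the other 4 tested core genes high. The split depended on the scaling. With library size alone, which shifted the median of all genes by -0.28 to -0.55, the complex I genes higher and lower were 10 and 4 in RPMI vehicle, 6 and 5 in RPMI quizartinib, 6 and 3 in RPMI combo, 6 and 9 in hBMSC-CM vehicle, 10 and 4 with hBMSC-CM quizartinib, 13 and 4 with everolimus and 11 and 5 with combo. Of all 12939 genes, 2266 were higher and 5978 lower in RPMI vehicle, 2851 and 4478 in RPMI quizartinib, and 3100 and 4315 in RPMI combo. In hBMSC-CM these counts were 2124 and 6051 with vehicle, 2311 and 5299 with quizartinib, 2354 and 4991 with everolimus, and 2864 and 5162 with combo. More of all genes were thus lower than higher in every condition. Under that scaling the median of the complex I genes still exceeded that of all genes by 0.43 to 1.00. Without replicate 3 the count in RPMI combo was 6 in place of 16, in RPMI quizartinib it was 11 or 12 in place of 19 whichever replicate was left out, and with everolimus it was 15 and 14 in place of 23 without replicates 1 and 3.

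NDUFV1, NDUFS7, NDUFS8 and NDUFS3 were higher in polysomes in all 7 conditions, as were 5 accessory genes (NDUFB11, NDUFS6, NDUFB9, NDUFAB1 and NDUFB6). The share of all genes higher in all 7 is not given here, so this count is not read as particular to complex I. NDUFV1 in RPMI vehicle was at 273, 291 and 311 CPM of input and 1320, 1240 and 713 CPM of polysomes. Replicate 3 was the lowest there, with log2 differences of 2.28, 2.09 and 1.20 (edgeR 1.90, SE 0.24, adjusted p = 5.03e-08). NDUFS7, an iron-sulfur subunit next to the ubiquinone site, reached 1.93 in RPMI vehicle (SE 0.20, edgeR adjusted p = 4.01e-09) from 128, 101 and 137 CPM of input and 543, 420 and 427 CPM of polysomes, and its lowest value in any condition was 1.30. NDUFB11, a membrane-arm subunit encoded on the X chromosome, stood at 1.80 (SE 0.21, edgeR adjusted p = 2.46e-08), and NDUFS8 at 1.59 (SE 0.30, edgeR adjusted p = 3.4e-05). NDUFS3, a core subunit of the ubiquinone-binding module, lay between 1.20 and 1.56 over the conditions.

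NDUFS1 lay below the other tested core genes in each condition. In RPMI vehicle it was at 112, 110 and 88.1 CPM of input but 69.2, 59.4 and 50.7 CPM of polysomes, lower in every replicate (log2 -0.79, SE 0.24, edgeR adjusted p = 0.00458). It was also lower in hBMSC-CM quizartinib (-0.57, edgeR adjusted p = 0.0397) and hBMSC-CM everolimus (-0.57, edgeR adjusted p = 0.0384), and had its highest value, 0.03, in RPMI quizartinib. The calls in hBMSC-CM were lost without quizartinib replicate 1 or 2 (adjusted p 0.0729 and 0.279) and without any 1 everolimus replicate (0.0568 to 0.188). NDUFA5, an accessory subunit of the peripheral arm, was lower in polysomes in 6 of 7 conditions. Its values in RPMI vehicle were 50.1, 65.6 and 66.7 CPM of input and 20.5, 35.6 and 40.8 CPM of polysomes (log2 -0.91, SE 0.32, edgeR adjusted p = 0.0125; 0.0755 without replicate 1). In RPMI quizartinib, RPMI combo, hBMSC-CM everolimus and hBMSC-CM combo its call was also lost on leaving out at least 1 of the replicates (adjusted p 0.0509 to 0.214).

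NDUFB1 was lower in polysomes in 4 conditions and NDUFC1 in 1, hBMSC-CM vehicle (-0.98, SE 0.28, edgeR adjusted p = 0.00273), where its input replicate 3 was at 98.9 CPM beside 54.7 and 55.0 CPM. Without that replicate neither NDUFC1 (-0.69, edgeR adjusted p = 0.0724) nor NDUFB1 (-0.40, edgeR adjusted p = 0.302) passed in hBMSC-CM vehicle. In hBMSC-CM combo the NDUFB1 call was lost without replicate 1 or 3 (adjusted p 0.0753 and 0.278). In RPMI vehicle NDUFC1 and NDUFA11, a small membrane subunit, completed the 4 lowest with -0.50 and -0.05, neither of them past the test. NDUFA1 was the one gene called higher in some conditions and lower in others. Its polysome minus input was below 0 in all 3 replicates of RPMI quizartinib (-0.35, -0.38 and -0.64; edgeR adjusted p = 0.0389, and 0.0729 to 0.0952 with any 1 replicate left out) and of RPMI combo (-1.01, -0.65 and -0.62; edgeR adjusted p = 0.000829), and above 0 in those of hBMSC-CM everolimus (0.60, 0.60 and 0.94). For 5 genes (NDUFA11, NDUFC2, NDUFB3, NDUFS4 and NDUFB5, named after their values were seen) no condition reached the threshold, and the share of all genes without a call is not given here.

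**Figure D3:**
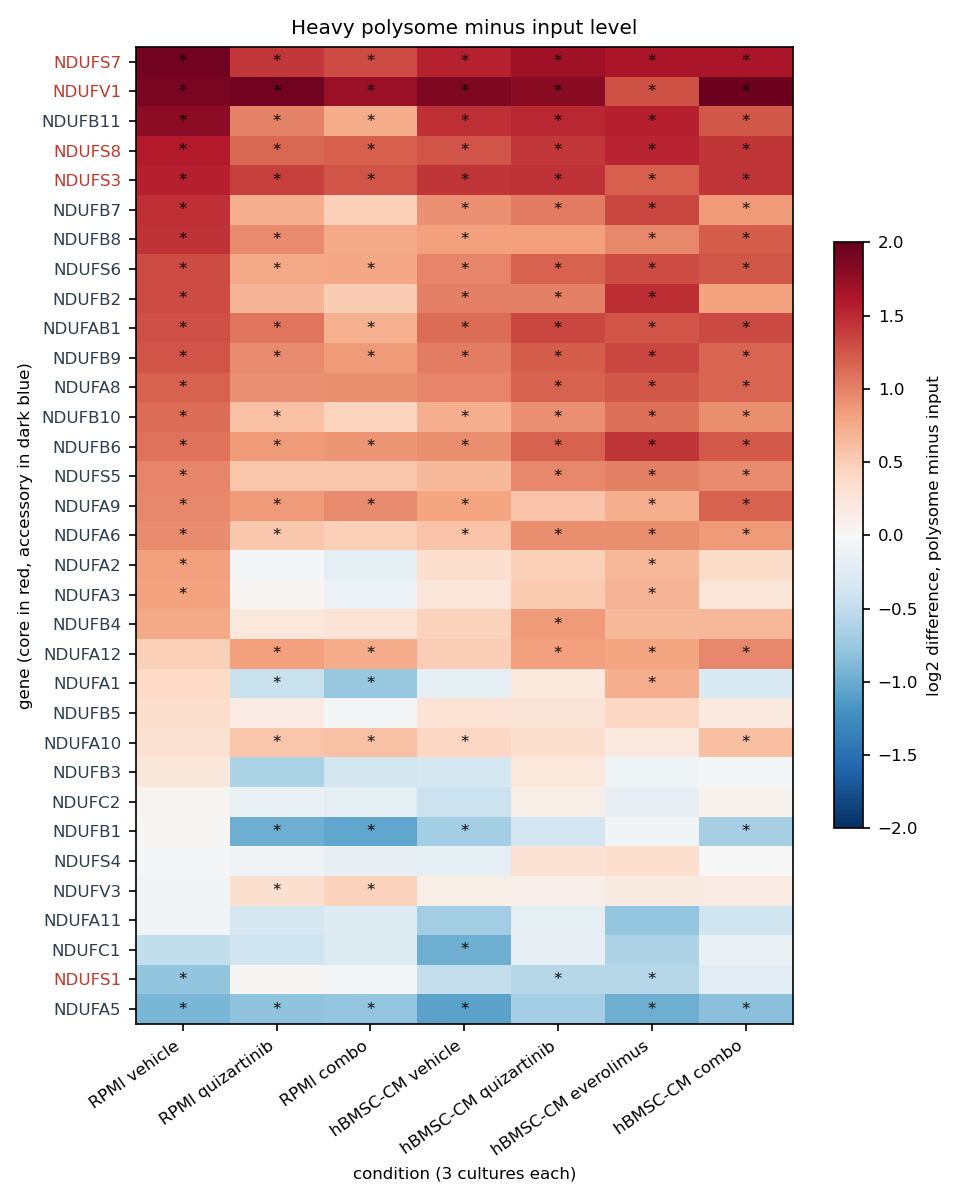
Log2 heavy polysome minus input (colour, -2 to 2) of the 33 tested genes (rows, ordered by RPMI vehicle, core names in red) in the 7 conditions (columns, 3 replicates each), with a star where edgeR's adjusted p was under 0.05. NDUFS7, NDUFV1, NDUFS8 and NDUFS3 are red throughout, from 1.15 to 1.97, while NDUFA5 is blue throughout, from -1.08 to -0.69.

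Composition of the coding sequence went with this difference. Over the 33 genes, polysome minus input in RPMI vehicle and the percent of codons ending in G or C had a Spearman correlation of 0.62 (Pearson 0.61), and over the 10521 tested genes with a coding sequence in the annotation 0.73 (Pearson 0.71). These are correlations across genes of the same libraries, whose points share depth and preparation and are no independent replicates. NDUFS7 (84.5%) and NDUFS8 (81.9%) were at the upper end of codon composition and NDUFS1 (38.2%) and NDUFA5 (37.9%) at the lower. Both low genes also have long 3' untranslated ends, 9368 and 5122 bases against 96 and 51 for NDUFS7 and NDUFS8. NDUFC1 and NDUFA11 had 65.8% and 72.3% and still fell among the 4 lowest. The part of composition in the polysome levels was not tested.

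**Figure D4:**
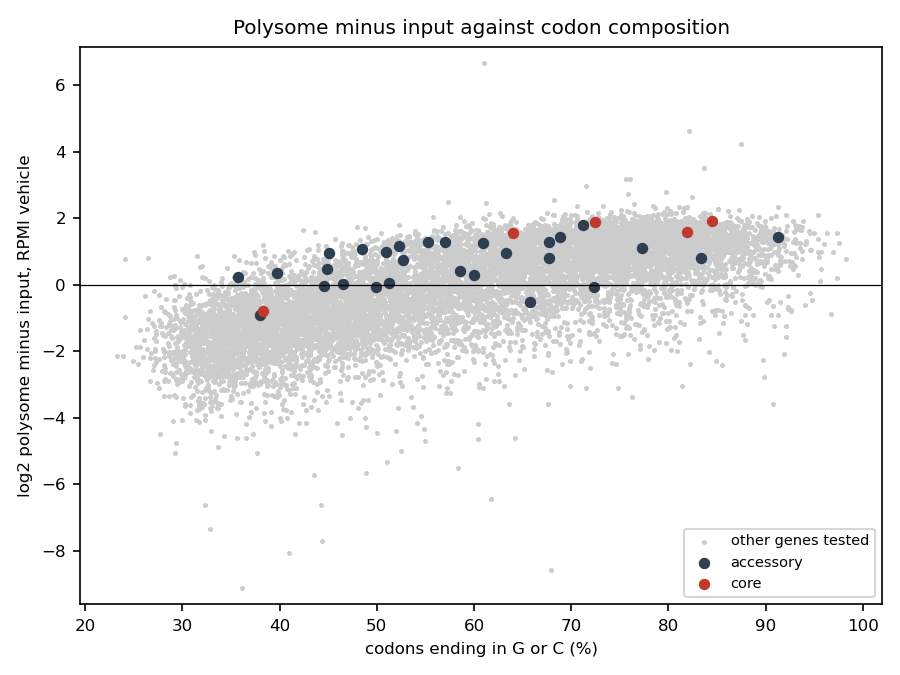
Log2 polysome minus input in RPMI vehicle (y axis) against the percent of codons ending in G or C (x axis), 1 point a gene, for core (red), accessory (dark blue) and other tested genes (grey). The Spearman correlation is 0.62 over the 33 complex I genes and 0.73 over all 10521; NDUFS1 and NDUFA5 lie at lower left.

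Whether the relative level of these transcripts in heavy polysomes changed beyond their change in input was tested as an interaction of fraction and condition. Each fraction is scaled to its own library, so the values do not measure the amount of RNA on polysomes. The study reported that RNA yield fell with quizartinib and with combo, and more so in polysomes than in input. A value above 0 can therefore go with less RNA on polysomes. For quizartinib in RPMI no complex I gene passed (edgeR, 0 of 33, and 0 by limma), with 6 at an unadjusted p under 0.05 and 1.55% of all genes called. DESeq2 called 2, NDUFA1 and NDUFB11, both lower, and 389 of all genes, 337 of them lower. The replicate numbers paired the samples here, and with the replicate as a block NDUFB1 (-0.94, edgeR adjusted p = 0.0487) and NDUFB11 (-0.81, edgeR adjusted p = 0.0438) were lower and NDUFS1 higher (0.84, edgeR adjusted p = 0.0321), while 7 genes passed with the block within each fraction. The shares of all genes with these blocks are not given here. The median was -0.31 against 0.15 over all genes, -0.20 for core and -0.36 for accessory genes. With library size alone it was -0.07 against 0.38 over all genes. Polysome minus input of NDUFS1 rose above all vehicle values, from -0.69, -0.89 and -0.80 to 0.06, -0.43 and 0.48, while that of NDUFB11 went below them, from 1.73, 2.00 and 1.67 to 1.06, 0.88 and 1.01; without the block neither passed (edgeR adjusted p = 0.224 and 0.163).

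In the other 7 comparisons of this kind, 0 complex I genes and 0 of all genes were called by edgeR (0%), and DESeq2 and limma also called 0 complex I genes. Quizartinib in hBMSC-CM gave a median of 0.20 (all genes 0.10; 1 gene at an unadjusted p under 0.05), and hBMSC-CM against RPMI gave -0.33 without drug (all genes -0.03; 1 gene) and 0.28 under quizartinib (all genes -0.09; 1 gene). Combo against quizartinib gave -0.07 in RPMI (all genes 0.00; 0 genes) and -0.05 in hBMSC-CM (all genes 0.05; 0 genes). Everolimus in hBMSC-CM gave 0.26 (all genes 0.01; 1 gene), where NDUFA1 was apart from vehicle, at 0.60, 0.60 and 0.94 against -0.08, -0.06 and -0.34 (log2 0.90, SE 0.26, unadjusted p = 0.00165 and adjusted p = 1 by edgeR). Without hBMSC-CM vehicle replicate 3 these medians were -0.05 for quizartinib in hBMSC-CM, -0.14 for medium without drug and 0.04 for everolimus.

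Among these 8 comparisons, the median stood farthest from that of all genes in the difference between media in the quizartinib effect on polysome minus input. Its median was 0.62 over the complex I genes, with 27 of 33 above 0, and -0.04 over all genes, and 4 genes had an unadjusted p under 0.05. The shares of all genes above 0 or at such a p are not given here. Core genes had a median of 0.22 and accessory genes of 0.72. Without hBMSC-CM vehicle replicate 3 the complex I median was 0.46, with 1 gene at an unadjusted p under 0.05 and 0 called. NDUFA1 showed a difference of 1.24 (SE 0.37, unadjusted p = 0.00206, adjusted p = 0.884 by edgeR), made up of -0.85 in RPMI and 0.38 in hBMSC-CM. NDUFB3, a small membrane-arm subunit singled out after its values were seen, had the highest, 1.43 with an SE of 0.74, and its 3 replicates ranged in RPMI vehicle from -0.80 to 0.77. NDUFS1 had the lowest, -0.91 (SE 0.48, edgeR adjusted p = 1). The vehicle and quizartinib libraries of both media enter this difference and the 4 simple comparisons above, which are therefore no independent evidence of it.

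Nuclear genes of complexes II to IV and of ATP synthase had medians of 0.77 each in this difference and complex I assembly factors one of 0.10, with 0 called by edgeR in any of these lists (4, 2 and 1 at an unadjusted p under 0.05). The 7 mitochondrial complex I genes had a median of -0.27.

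Coding length ran along with it. The Spearman correlation with coding length was -0.78 over the 33 complex I genes and -0.53 over 10521 genes, again across genes of the same libraries. The 25 complex I genes with up to 600 coding bases had a median of 0.74 and the 8 longer ones -0.10, while over all genes the medians were 0.51 for 1337 short and -0.16 for 9184 longer ones. The 5 tested core genes are all among the longer 8, and accessory genes ran from 177 bases in NDUFB1 upward. Correlations with coding length had the opposite sign for quizartinib in RPMI (0.58 over complex I genes, 0.51 over all) and for medium without drug (0.65 and 0.40), and the same sign for everolimus (-0.72 and -0.30). For quizartinib in hBMSC-CM they were -0.70 over complex I genes but -0.09 over all genes. Medium under quizartinib gave -0.72 and -0.50. Combo against quizartinib gave 0.58 and 0.22 in hBMSC-CM, and -0.03 and 0.15 in RPMI. The part of length in the differences was not tested.

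**Figure D5:**
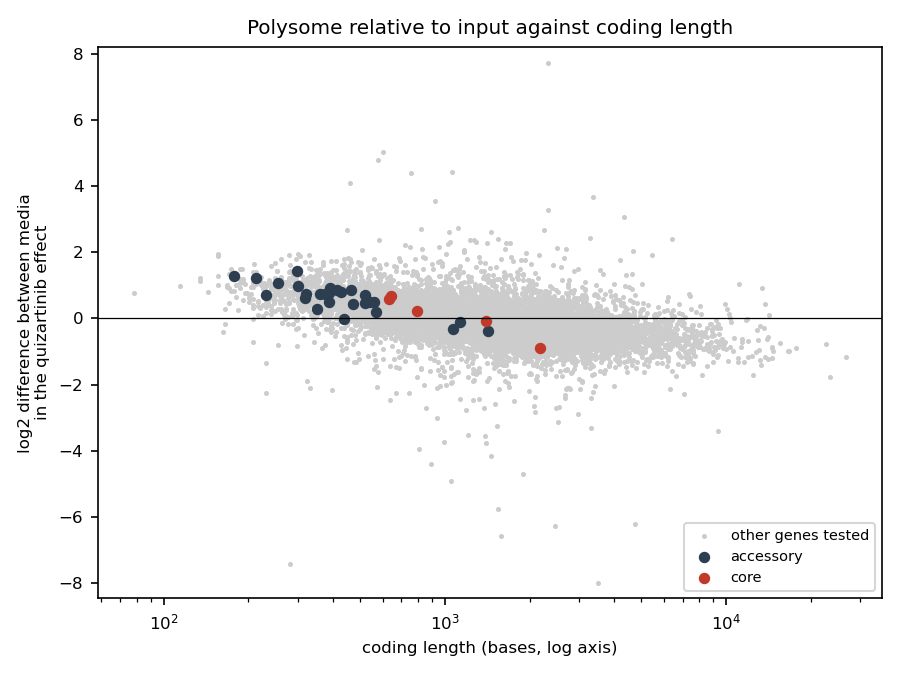
Difference between hBMSC-CM and RPMI in the log2 quizartinib effect on polysome minus input (y axis) against coding length in bases (log x axis), 1 point a gene, for core (red), accessory (dark blue) and other tested genes (grey). The Spearman correlation is -0.78 over the 33 complex I genes and -0.53 over all 10521, and NDUFS1, the longest member, lies lowest of the 33 at -0.91.

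Promoters were searched for 4 short motifs on both strands of 300-base windows from RefSeq, in which 32 of the 36 genes had an entry. GCATGCGC, the core of the NRF1 site, was found in 5 of 32 (15.6%), against 3.27% of all promoters and 6.02% of those of tested genes. AAGATGGCG, the core of the YY1 site, was found in 5 (15.6%; 1.85% and 4.37%). CCGGAAGT of ETS factors was found in 2 (6.25%; 4.44% and 9.77%) and the palindrome CACGTG, the E-box of MYC and related factors, in 3 (9.38%; 7.43% and 10.5%). The first motif was in NDUFA6, NDUFA8, NDUFB4, NDUFS6 and NDUFS7. Of these, NDUFA6 and NDUFS6 were called lower under quizartinib in RPMI input, where 18% of all genes were, and the other 3 were not. The YY1 motif was in NDUFA6, NDUFA7, NDUFA9, NDUFS4 and NDUFS7, of which NDUFA6 alone was called lower and NDUFA7 was not tested. Of the genes with the ETS motif, NDUFS1 was called lower and NDUFA13 was not tested. No gene with the E-box (NDUFA7, NDUFA11 and NDUFS7) was called. The part of the motifs in the calls was not tested.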

How the data were processed

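RNA-seq of input and heavy polysome RNA from MOLM-13 cells was analysed from the gene counts that the authors deposited. The authors trimmed poly-A selected reads with BBDuk, dropped reads under 50 bases, aligned them to hg38 with Ensembl 96 genes using STAR 2.6.0a, and summed the counts by gene name; the strand setting is not given in the sources used here. The table held 58884 rows, 25133 of them without a count. Genes with a mean count and a mean CPM of at least 1 were kept (12939 genes, 99.8% of counts).

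Counts of all 42 libraries were fitted in edgeR 4.0.16 (R 4.3.3) by the robust quasi-likelihood method with TMM factors and 14 group means, and p-values of each of 23 comparisons were adjusted by the Benjamini-Hochberg method over all genes. CPM values are scaled by the TMM factors. Polysome minus input is the log2 difference of the fractions in a condition, and its change between conditions an interaction term. The script was tested on simulated data. Sequences, lengths and overlaps came from GENCODE 44 on GRCh38, and promoters from RefSeq.

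Named genes were the core subunits, up to 6 called genes per comparison with the largest change, the 4 highest and 4 lowest in polysome minus input in RPMI vehicle, and the extremes of protein length and level, with at most 3 called genes of each other list. The members and lists were chosen with earlier results of these data known. Within a fraction, same-numbered replicates deviated together from their group means. Every pair's correlation was over 0.1 in each of the 8 comparisons between conditions except everolimus against vehicle. The pairing comes from these correlations, for example 0.37 to 0.57 in input of the RPMI quizartinib comparison. Between input and polysome libraries of the same condition and number, the correlation ran from -0.044 to 0.303 with a median of 0.178. Alternatives were limma 3.58.1 (voom), DESeq2 1.42.0, RLE factors, library size alone, no filter, the compared groups alone, replicate blocks and leaving out each replicate.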

Additional observations from a re-analysis of the deposited data

How the results depend on the processing

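The number of complex I genes called under quizartinib in RPMI input was 19 with the compared groups alone, 16 with the replicate block and 19 with the block within each fraction, and 4 to 7 with 1 replicate left out. In hBMSC-CM input it was 8 and 14 with these blocks and 0 to 6 with 1 replicate left out. Everolimus in hBMSC-CM, whose replicate numbers did not pair (correlations -0.015 to 0 in input and -0.09 to 0.027 in polysomes), gave 3 with the block within each fraction, and the cause was not tested. For polysome relative to input under quizartinib in RPMI it was 2 with DESeq2, 1 with RLE factors, 3 with the replicate block and 7 with the block within each fraction. DESeq2 called 389 of all genes there and RLE factors 252. The shares of all genes with the compared groups alone or with blocks are not given here, and mostly not with 1 replicate left out. Those counts are therefore not read as results about complex I. The replicate block changed no other count of calls by more than 1.5 times. Polysome minus input gave 11 calls in RPMI quizartinib with library size alone, 11 with the compared groups alone, and 9 in RPMI combo with library size alone. With 1 replicate left out it gave 18 to 21 in RPMI vehicle, 11 to 12 in RPMI quizartinib, 6 to 17 in RPMI combo, 13 to 15 in hBMSC-CM vehicle, 12 to 16 with quizartinib, 14 to 17 with everolimus and 15 to 17 with combo. The other comparisons stayed at 0 in each such fit. With library size alone, NDUFV3 in RPMI quizartinib (-0.004) and NDUFA10 in hBMSC-CM vehicle (-0.118) changed sign. The cause of these shifts was not tested. RLE factors shifted the median of all genes by up to 0.145 in polysome minus input (RPMI vehicle). Leaving out hBMSC-CM vehicle replicate 3 moved the complex I medians in input from -0.37 to 0.0 for everolimus and from -0.42 to -0.13 for quizartinib. With 3 replicates a condition, changes of a size near their standard error could not be told from 0. Some changes well above their standard error also missed the adjusted threshold. NDUFA1 in the difference between media in the quizartinib effect on polysome minus input was 1 of them.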
